A study of Mus musculus with 12 samples.

Results

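Desmosome and corneodesmosome genes were followed in mouse ear skin. They are 10 of the 24532 genes in the deposited table and were taken by symbol: the desmosomal cadherins Dsg1a, Dsg1b, Dsg3, Dsc1, Dsc2 and Dsc3, the armadillo proteins Pkp1 and Jup, the plakin Dsp, and the corneodesmosome gene Cdsn. All 10 genes were in the table and all 10 passed the filter on low counts. The study's question was the effect of the microbiota on the transcriptome of skin with dermatitis-like inflammation. Bulk RNA sequencing gave 12 libraries in 4 groups of 3. Ear skin of specific-pathogen-free (SPF) mice, which carry a microbiota without listed pathogens, received ethanol, the vehicle, or MC903. Ear skin of germ-free (GF) mice, which are raised without microbes, received the same 2 treatments. MC903 (calcipotriol), an analogue of vitamin D, inflames mouse skin. The labels give 5 applications but do not settle whether these were spread over days. The strain is C57BL/6 in 9 libraries, and in the other 3, all GF, the same name ends in another digit. SPF libraries are numbered 1, 2 and 3 and GF libraries 1, 4 and 5. The labels do not say that replicates came from separate mice, so a p-value reflects only how these libraries vary, which may be technical.

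Desmosomes are spot-like junctions that bind keratinocytes to each other. Desmogleins (Dsg) and desmocollins (Dsc) span the membrane and bind their counterparts on the next cell. Inside the cell plakoglobin (Jup) and plakophilins (Pkp) hold the cadherin tails, and desmoplakin (Dsp) ties the plaque to keratin filaments. As keratinocytes move up the epidermis, desmocollin 3 and desmoglein 3 of the lower layers give way to desmocollin 1 and desmoglein 1. In the granular layer corneodesmosin (Cdsn) is secreted into the junction, which becomes a corneodesmosome, and kallikrein proteases cut it when corneocytes are shed.

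Library totals lay between 36358294 and 48225425 counts. Expression is given as CPM, counts scaled to a common library size, on library sizes scaled by TMM, edgeR's trimmed mean of M values. Changes are log2 fold changes with their standard error (SE) from edgeR's quasi-likelihood test, in 1 fit of all 12 libraries, and p-values are adjusted by Benjamini-Hochberg over 16466 genes. A gene is called changed at an adjusted p under 0.05. Mean TMM factors were 1.23 and 1.19 in the SPF and GF ethanol groups and 0.83 in both MC903 groups. On library totals alone the median change of all genes was therefore -0.68 in SPF skin and -0.58 in GF skin, against -0.10 and -0.07 with TMM, and calls that depend on this are given beside the gene. Higher genes then made up 23.6% of the calls in SPF skin and 22.4% in GF skin, so each change below is relative to the TMM scaling. Keratinocyte markers were present in every library. The summed level of 8 interfollicular keratinocyte markers was 25662 to 27791 CPM with ethanol and 53588 to 65038 CPM with MC903 in SPF skin, and 29499 to 34498 CPM and 67257 to 71312 CPM in GF skin. Of these 8 markers 6 were called higher and 1 lower in SPF skin, and 8 higher in GF skin. In SPF skin mean Krt14 went from 4222 to 24020 CPM and Krt1 from 1644 to 11644 CPM, while Krt10 went from 12243 to 8709 CPM. Markers of fibroblasts summed to 7183 to 8370 CPM with ethanol and 3665 to 4670 CPM with MC903 in SPF skin. All 3 skeletal muscle markers were called higher in GF than in SPF skin under both treatments, with a median log2 difference of 0.78 in each. Their sums with ethanol were 591 to 699 CPM in SPF and 999 to 1090 CPM in GF skin. With MC903 they were 361 to 394 CPM and 572 to 635 CPM. The 3 sebaceous gland markers summed to 7301 to 7670 CPM with ethanol and 1468 to 1835 CPM with MC903 in SPF skin, and to 5218 to 5850 CPM and 2066 to 2478 CPM in GF skin. All 3 fell in both housings, with median log2 changes of -2.21 in SPF and -1.40 in GF skin, and 2 of the 3 differed between the responses (median difference 1.07). Of 7 hair follicle genes, summed at 24.8 to 40.5 CPM in the ethanol libraries, 3 rose in SPF and 2 in GF skin, to sums of 2502 to 4054 CPM and 1360 to 1382 CPM. Most of this rise was Tchh and Krt75. Krt25, which also rose in SPF skin, went from a mean of 0.0839 CPM with ethanol to 2.41 CPM with MC903 there. The keratins Krt27, Krt71, Krt35 and Krt85 did not pass the test for either response. No marker list had a gene at 0 in all libraries of a group. In bulk tissue a change in the number of cells of a type and a change in RNA per cell cannot be told apart, and the part of either in the results on the desmosome genes was not tested.

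MC903 changed 9 of the 10 genes in SPF skin and 7 of 10 in GF skin. In SPF skin Dsg1b, Dsg3, Dsc1, Dsc2, Pkp1, Jup and Cdsn rose, Dsg1a and Dsc3 fell, and Dsp did not pass the test. Of all genes tested in SPF skin 73.8% were called, 35% higher and 38.8% lower, so 9 of 10 is not far from the background of so broad a response. In GF skin Dsg1b, Dsc2, Pkp1, Jup and Cdsn rose and Dsg1a and Dsc3 fell, against a background of 68.5% called, 33.4% higher and 35.1% lower. The treatments did not overlap for 9 of the 10 genes in SPF skin, where 76.7% of all genes did not, and for 8 of 10 in GF skin, where 74% did not. The median change of the 10 genes was 0.89 in SPF skin and 0.45 in GF skin. The 2 responses differed for 5 of the 10 genes, against 17% of all genes.

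**Figure D1:**
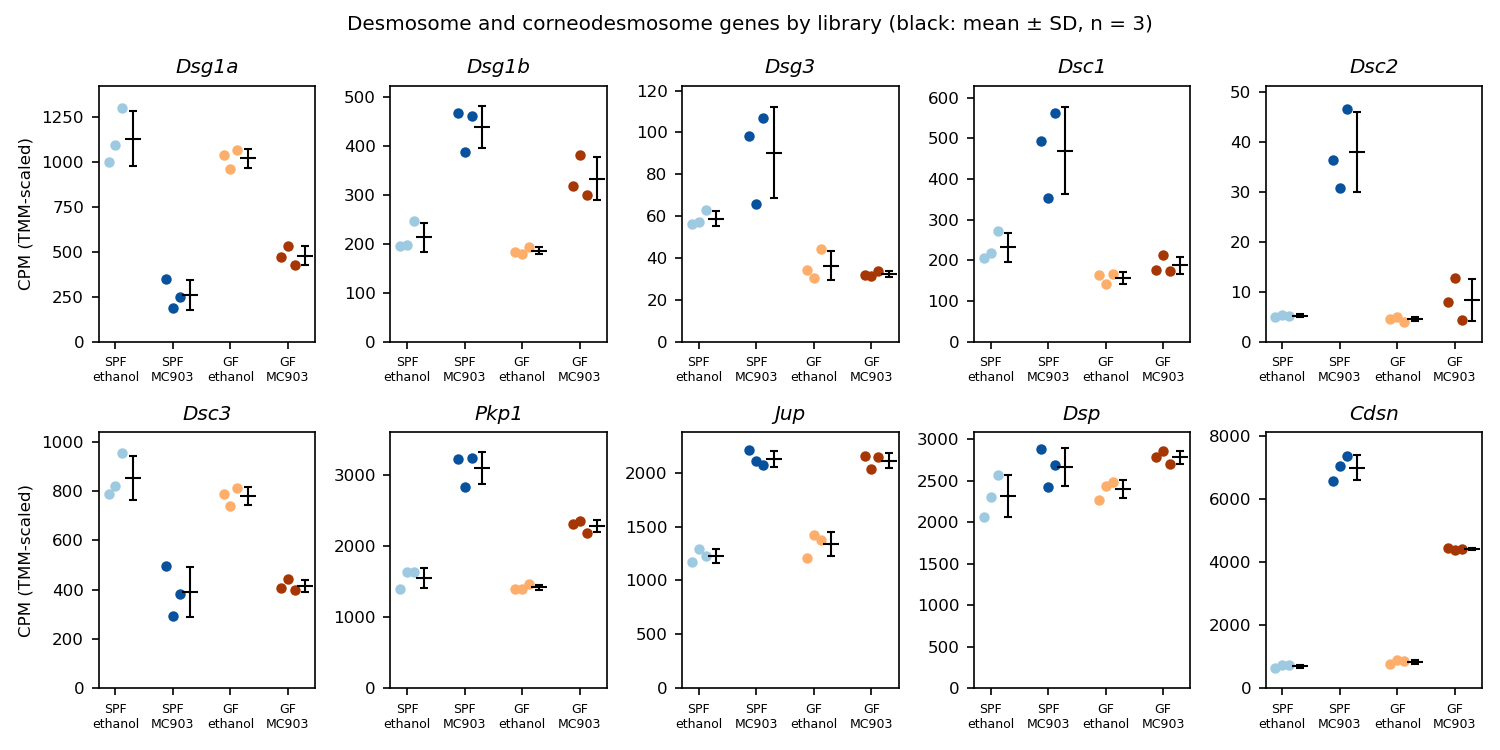
Expression of the 10 genes in each of the 12 libraries, in CPM on TMM-scaled library sizes, with each axis starting at 0. Coloured points are libraries in replicate order and black marks are the mean ± SD of 3 libraries. Cdsn lies between 646 and 900 CPM in ethanol libraries and between 4398 and 7357 CPM with MC903, while Dsg1a lies lower with MC903 in both housings.

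Desmoglein 1 is the main desmoglein of the upper epidermis and the target of staphylococcal exfoliative toxins and of autoantibodies in pemphigus foliaceus. The mouse has several copies of this gene, of which Dsg1a and Dsg1b are the members described here. Dsg1a was 998, 1090 and 1296 CPM with ethanol and 348, 187 and 247 CPM with MC903 in SPF skin. In GF skin it was 1034, 958 and 1063 CPM with ethanol and 472, 533 and 427 CPM with MC903. The treatments did not overlap in either housing, and all 3 SPF MC903 libraries lay below all 3 GF MC903 libraries. Dsg1a fell 4.32-fold in SPF skin, a log2 change of -2.11 (SE 0.19, adjusted p = 4.6e-07), and 2.13-fold in GF skin, a log2 change of -1.09 (SE 0.18, adjusted p = 1.6e-04). The difference between the responses, 1.02 (SE 0.25), passed the test with an adjusted p of 0.017. The summed sebaceous gland markers, given above, also fell in both housings and more in SPF skin, and their part in the Dsg1a result was not tested.

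Dsg1b moved the other way. It was 195, 198 and 247 CPM with ethanol and 467, 388 and 460 CPM with MC903 in SPF skin. The GF libraries had 184, 180 and 194 CPM with ethanol and 317, 382 and 300 CPM with MC903. Again the treatments did not overlap in either housing. Dsg1b rose 2.05-fold in SPF skin (log2 1.04, SE 0.11, adjusted p = 3.2e-06) and 1.79-fold in GF skin (log2 0.84, SE 0.11, adjusted p = 2.7e-05). The difference between its responses was -0.20 (SE 0.16, 95% interval -0.51 to 0.11, adjusted p = 0.44).

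Dsg1b thus took a larger share of the desmoglein 1 counts after MC903. Of the counts of Dsg1a, Dsg1b and the third copy, Dsg1c, Dsg1b held 15.1 to 16.1% in all 6 ethanol libraries. With MC903 it held 57.2, 67.4 and 64.9% in SPF skin and 40.0, 41.6 and 41.1% in GF skin. The 4 groups fell into 3 levels of this share: both ethanol groups together, GF MC903 above them and SPF MC903 highest, with no overlap between the levels. The log2 ratio of Dsg1b to Dsg1a counts went from -2.40 ± 0.05 (SD, n = 3) to 0.79 ± 0.33 in SPF skin and from -2.45 ± 0.04 to -0.52 ± 0.05 in GF skin. Each of these 2 shifts had p = 0.1 in a two-sided exact permutation test, the smallest p that 3 libraries against 3 can give (0.121 after adjustment over 40 ratio tests). A ratio within a library does not depend on the scaling between libraries.

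**Figure D2:**
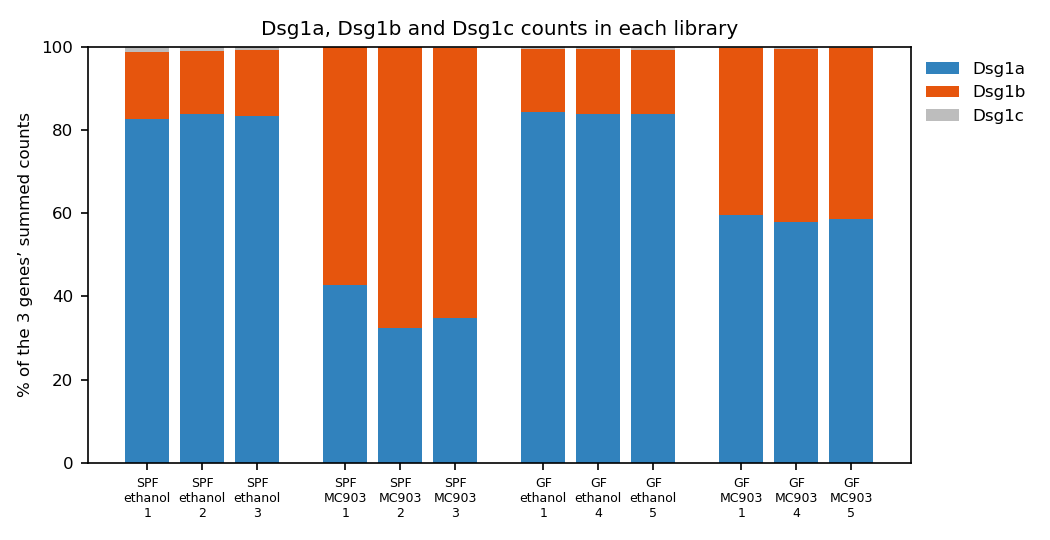
Share of the summed Dsg1a, Dsg1b and Dsg1c counts held by each gene in each of the 12 libraries, in percent, by group and replicate number. Dsg1b holds 15.1 to 16.1% with ethanol, 40.0 to 41.6% with MC903 in GF skin and 57.2 to 67.4% with MC903 in SPF skin.

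The copies share sequence, which limits how far their counts can be separated. In the annotated transcripts 35% of the 50-base words of Dsg1a and 48.4% of those of Dsg1b also occur in another gene of the desmosomal set, and at 100 bases 24.6% and 32.8%. The Dsg1b transcript searched held 3915 different 50-base words, while the deposited values imply a length of 6088 bases. The shares may therefore differ for the Dsg1b sequence that was counted. The other 8 genes share no 50-base word with any gene of that set. The sources used here do not say how reads that fit both copies were assigned, and the single values of Dsg1a and Dsg1b are therefore uncertain. In the RefSeq table the lncRNA gene Gm31237 also overlaps Dsg1a, and the sources used here do not say whether counting used strand. Dsg1a, Dsg1b and Dsg1c were also counted as 1 gene. That sum was 1208, 1300 and 1555 CPM with ethanol and 816, 576 and 709 CPM with MC903 in SPF skin. Its GF values were 1224, 1144 and 1265 CPM with ethanol and 792, 919 and 729 CPM with MC903. The sum fell in both housings, by 0.95 (SE 0.13, adjusted p = 2.8e-05) and by 0.57 (SE 0.13, adjusted p = 0.0018) on the log2 scale. The difference between these responses, 0.38 (SE 0.18), did not pass the test (adjusted p = 0.19), so the difference called for Dsg1a is not a called difference of total desmoglein 1.

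Desmoglein 3, the pemphigus vulgaris antigen of the lower epidermis, was far lower in counts. Dsg3 was 56.5, 57.2 and 63.0 CPM with ethanol and 98.5, 65.6 and 107 CPM with MC903 in SPF skin. In GF skin it was 34.4, 30.5 and 44.2 CPM with ethanol and 32.0, 31.4 and 33.8 CPM with MC903. Every GF library lay below every SPF library, and the GF treatments overlapped. Dsg3 rose 1.53-fold in SPF skin (log2 0.61, SE 0.16, adjusted p = 0.0045), but on library totals the change was 0.04 with an adjusted p of 0.83. In GF skin the change was -0.17 (SE 0.16, adjusted p = 0.38), and on library totals it was -0.68 with an adjusted p of 0.0036. The responses differed by -0.78 (SE 0.23, adjusted p = 0.037). That call was lost on library totals (adjusted p = 0.064) and in 10 of the 12 fits that left out 1 library, with adjusted p between 0.053 and 0.09.

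Desmocollin 1 belongs to the upper, differentiating layers. Dsc1 was 205, 219 and 272 CPM with ethanol and 493, 353 and 563 CPM with MC903 in SPF skin. The GF libraries had 165, 141 and 167 CPM with ethanol and 177, 212 and 174 CPM with MC903. The SPF MC903 libraries were the highest of the 12, and the GF MC903 libraries lay just above their ethanol counterparts. Dsc1 rose 2.02-fold in SPF skin (log2 1.02, SE 0.16, adjusted p = 7.6e-05). In GF skin the change was 0.25 (SE 0.16, adjusted p = 0.17) and turned to -0.26 on library totals (adjusted p = 0.16). With the trend of change with gene length removed, Dsc1 was called higher in GF skin (log2 0.62, adjusted p = 0.0013). It was also called higher there in a fit of only the 6 libraries compared (log2 0.25, adjusted p = 0.047). The responses differed by -0.77 (SE 0.22, adjusted p = 0.033), a call lost on library totals (adjusted p = 0.058) and in 8 of 12 fits without 1 library (adjusted p between 0.061 and 0.078).

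Desmocollin 2 is the desmocollin of simple epithelia and heart and is widely expressed elsewhere. Dsc2 was the lowest of the 10 genes, at 4.92, 5.46 and 5.26 CPM with ethanol and 36.5, 30.9 and 46.7 CPM with MC903 in SPF skin. Its GF values were 4.65, 4.92 and 4.05 CPM with ethanol and 7.98, 12.8 and 4.44 CPM with MC903. The 3 SPF MC903 libraries stood above all others, and among the GF MC903 libraries replicate 5 lay within the ethanol range. Dsc2 rose 7.29-fold in SPF skin (log2 2.87, SE 0.29, adjusted p = 1.6e-06). In GF skin it rose by 0.89 (SE 0.29, adjusted p = 0.015), but without GF MC903 replicate 4 the change was 0.45 (adjusted p = 0.1), without GF ethanol replicate 5 it was 0.81 (adjusted p = 0.052), and on library totals it was 0.38 (adjusted p = 0.25). The difference between the responses was -1.98 (SE 0.40, adjusted p = 0.0055) and stayed called in every alternative tried, with adjusted p of at most 0.016.

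Desmocollin 3, needed for epidermal cohesion in mice, fell. Dsc3 was 786, 819 and 954 CPM with ethanol and 496, 294 and 384 CPM with MC903 in SPF skin. In GF skin it was 786, 738 and 812 CPM with ethanol and 405, 444 and 399 CPM with MC903. Every MC903 library lay below every ethanol library, and the housings overlapped within each treatment. Dsc3 fell 2.18-fold in SPF skin (log2 -1.12, SE 0.15, adjusted p = 1.8e-05) and 1.87-fold in GF skin (log2 -0.90, SE 0.15, adjusted p = 1.4e-04). The responses differed by 0.22 (SE 0.21, 95% interval -0.19 to 0.63), with an adjusted p of 0.52.

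Among the desmocollins the balance therefore shifted within each library. The log2 ratio of Dsc3 to Dsc1 counts went from 1.88 ± 0.06 (SD, n = 3) to -0.27 ± 0.28 in SPF skin, a shift of -2.15, and from 2.31 ± 0.08 to 1.15 ± 0.07 in GF skin, a shift of -1.15. The ratio of Dsc2 to Dsc3 shifted by 4 in SPF skin and by 1.67 in GF skin. For these 4 shifts the groups did not overlap, and the exact permutation p was 0.1, which is the smallest possible. The ratio of Dsg3 to the sum of Dsg1a and Dsg1b shifted by 1.53 in SPF skin (exact permutation p = 0.1) and by 0.43 in GF skin (exact permutation p = 0.2), where the groups overlapped.

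The 6 cadherin genes lie on chromosome 18 in a cluster of 9 desmosomal cadherin genes that spans 644 kb in GRCm38.p6, chr18:19960930-20604526. No other protein-coding gene lies inside it. In the order Dsc3, Dsc2, Dsc1, Dsg1c, Dsg1a, Dsg1b, Dsg4, Dsg3 and Dsg2 the response did not keep 1 sign along the chromosome. Dsg1a and Dsg1b, which moved in opposite directions, are neighbours with 33375 bp between them. Dsg1c, next to Dsg1a on its other side, fell by 3.74 (SE 0.29, adjusted p = 1.4e-07) in SPF skin and by 1.32 (SE 0.25, adjusted p = 5.4e-04) in GF skin on the log2 scale. Its responses differed by 2.42 (SE 0.38, adjusted p = 0.0014), the same sign as for Dsg1a, though 29% of its 50-base words occur in the other copies. Dsg2, the desmoglein of simple epithelia, fell in both housings, with log2 changes of -0.81 (SE 0.13, adjusted p = 8.5e-05) and -1.08 (SE 0.13, adjusted p = 1.1e-05). Dsg4, a hair follicle desmoglein, had 0 to 10 counts per library and was not tested.

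**Figure D3:**
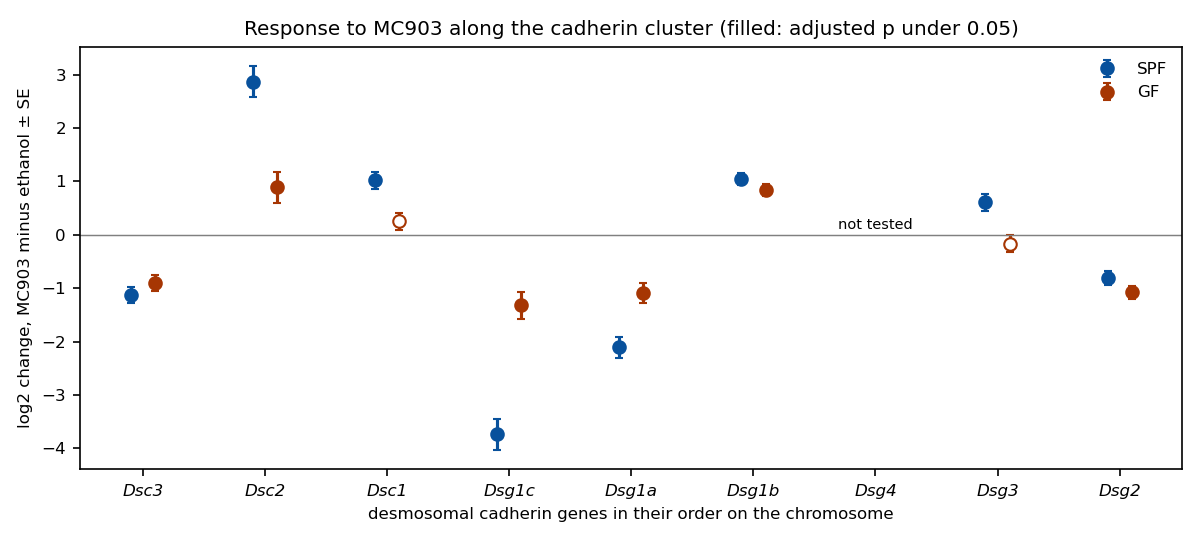
Log2 change ± SE from ethanol to MC903 for the desmosomal cadherin genes in their order along the cluster, at even spacing, in SPF (blue) and GF (red) skin. Filled points passed an adjusted p under 0.05 and Dsg4 was not tested. The neighbours Dsg1a and Dsg1b lie on opposite sides of 0, at -2.11 and 1.04 in SPF skin.

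Inside the plaque, Pkp1, the plakophilin of suprabasal desmosomes whose loss makes human skin fragile, rose in both housings. Pkp1 (chr1:135871394-135919207) was 1398, 1639 and 1646 CPM with ethanol and 3227, 2841 and 3250 CPM with MC903 in SPF skin. The GF libraries had 1397, 1403 and 1466 CPM with ethanol and 2313, 2357 and 2191 CPM with MC903. No MC903 library overlapped an ethanol library, and the GF MC903 libraries lay between the ethanol and the SPF MC903 libraries. The rise was 1.99-fold in SPF skin (log2 0.99, SE 0.08, adjusted p = 3.5e-07) and 1.61-fold in GF skin (log2 0.69, SE 0.08, adjusted p = 1.3e-05), and the GF call was lost on library totals (log2 0.17, adjusted p = 0.064). The difference between the responses was -0.31 (SE 0.12, 95% interval -0.54 to -0.07), with an adjusted p of 0.099 here and 0.023 in DESeq2.

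Jup, plakoglobin, which also takes part in adherens junctions, rose in both housings. Jup (chr11:100368856-100397839) was 1167, 1292 and 1224 CPM with ethanol and 2207, 2108 and 2067 CPM with MC903 in SPF skin. Its GF values were 1211, 1424 and 1375 CPM with ethanol and 2155, 2036 and 2144 CPM with MC903. The treatments were well apart and the housings overlapped within each treatment. The log2 changes were 0.79 (SE 0.08, adjusted p = 1.0e-06) in SPF skin and 0.66 (SE 0.08, adjusted p = 7.7e-06) in GF skin. On library totals they were 0.22 (adjusted p = 0.0072) and 0.15 (adjusted p = 0.049). Their difference was -0.13 (SE 0.11, 95% interval -0.34 to 0.08, adjusted p = 0.44).

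Dsp, desmoplakin, did not pass the test in either housing. Dsp (chr13:38151294-38198577) was 2062, 2308 and 2568 CPM with ethanol and 2883, 2426 and 2685 CPM with MC903 in SPF skin. In GF skin it was 2275, 2432 and 2487 CPM with ethanol and 2785, 2863 and 2707 CPM with MC903. The treatments overlapped in SPF skin and did not in GF skin. The changes were 0.20 (SE 0.09, 95% interval 0.02 to 0.39, adjusted p = 0.064) and 0.22 (SE 0.09, 95% interval 0.03 to 0.40, adjusted p = 0.056). This result depended on the method: DESeq2 called Dsp higher by 0.25 (adjusted p = 0.0097) and 0.23 (adjusted p = 0.018), library totals made it lower by -0.37 (adjusted p = 0.0021) and -0.30 (adjusted p = 0.0092), and removing the trend of change with gene length raised it to 0.94 (adjusted p = 5.7e-07) and 0.78 (adjusted p = 4.7e-06). Of the 10 genes Dsp has the longest length implied by the deposited counts and FPKM values, 9811 bases. Gene length here means that implied transcript length and not the span on the chromosome. Within libraries Dsp lost ground to both armadillo genes in ratios of counts, which do not take out the trend with gene length. The log2 ratio of Dsp to Jup counts shifted by -0.59 in SPF skin and -0.45 in GF skin, and that of Pkp1 to Dsp by 0.79 and 0.47, each without overlap and with an exact permutation p of 0.1.

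Corneodesmosin had the largest change of the 10 genes in both housings. Cdsn (chr17:35543101-35557180) was 646, 734 and 729 CPM with ethanol and 6585, 7061 and 7357 CPM with MC903 in SPF skin. The GF libraries had 757, 900 and 860 CPM with ethanol and 4454, 4398 and 4421 CPM with MC903. The 3 levels were separate: all ethanol libraries lowest, GF MC903 in the middle and SPF MC903 highest. Cdsn rose 9.96-fold in SPF skin (log2 3.32, SE 0.10, adjusted p = 7.5e-11) and 5.27-fold in GF skin (log2 2.40, SE 0.09, adjusted p = 1.7e-09). The responses differed by -0.92 (SE 0.12, adjusted p = 5.6e-04).

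**Figure D4:**
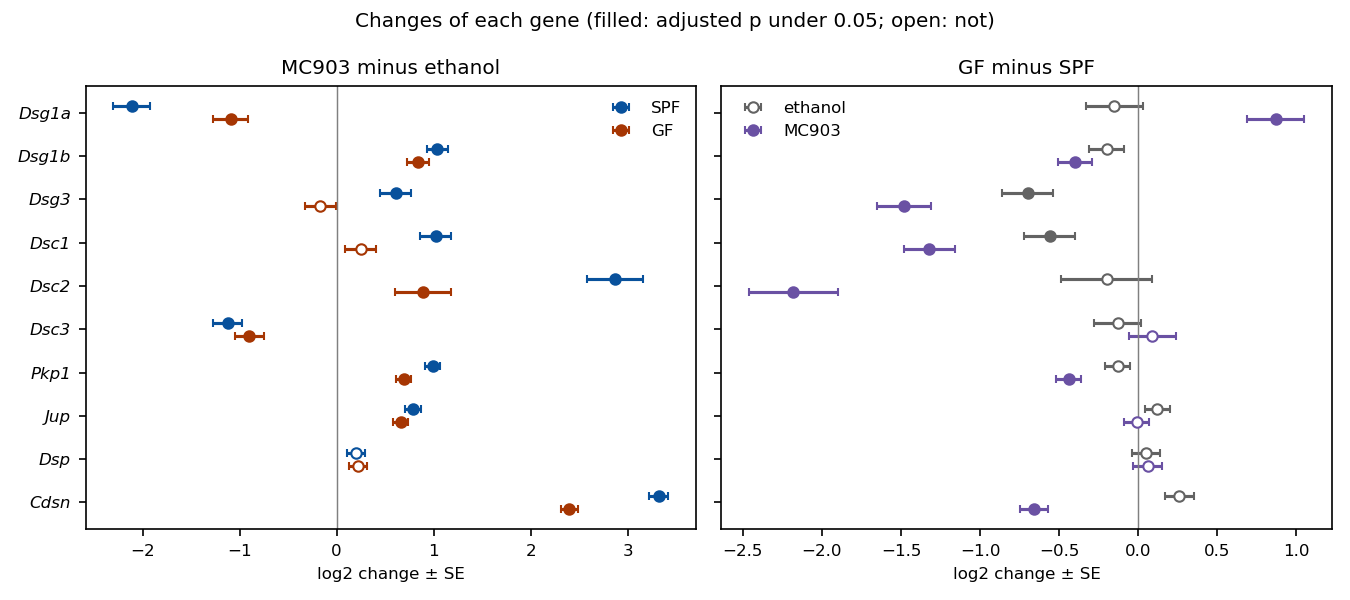
Log2 change ± SE of each of the 10 genes, for MC903 minus ethanol in SPF (blue) and GF (red) skin on the left and for GF minus SPF with ethanol (grey) and MC903 (purple) on the right. Filled points passed an adjusted p under 0.05. Cdsn has the largest response, 3.32 in SPF and 2.40 in GF skin, and Dsc2 the largest difference between housings with MC903, -2.18.

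Upstream windows from RefSeq (GRCm38.p6) were at hand for 3 of the 10 genes and are shown to set the gene with the largest response, Cdsn, beside 2 plaque genes, Jup and Dsp. Each window ends 1 base before the RefSeq start of the gene or transcript and is read 5′ to 3′ on the gene's strand. Capitals mark the letters GGGCGG, a site of SP and KLF factors called the GC box, and the letters CCAAT, known as the CCAAT box, or their reverse complements.
Cdsn, chr17:35551878-35552127, plus strand: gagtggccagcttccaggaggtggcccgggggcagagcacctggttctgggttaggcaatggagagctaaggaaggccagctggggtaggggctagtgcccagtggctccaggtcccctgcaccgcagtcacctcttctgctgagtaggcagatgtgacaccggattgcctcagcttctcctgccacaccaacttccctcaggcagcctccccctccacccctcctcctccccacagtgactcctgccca
Jup, chr11:100397840-100398040, minus strand: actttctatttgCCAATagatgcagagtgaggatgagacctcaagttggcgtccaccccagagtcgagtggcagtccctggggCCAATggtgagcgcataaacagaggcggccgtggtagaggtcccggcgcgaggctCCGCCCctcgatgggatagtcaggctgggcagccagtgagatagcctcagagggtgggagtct
Dsp, chr13:38151044-38151293, plus strand: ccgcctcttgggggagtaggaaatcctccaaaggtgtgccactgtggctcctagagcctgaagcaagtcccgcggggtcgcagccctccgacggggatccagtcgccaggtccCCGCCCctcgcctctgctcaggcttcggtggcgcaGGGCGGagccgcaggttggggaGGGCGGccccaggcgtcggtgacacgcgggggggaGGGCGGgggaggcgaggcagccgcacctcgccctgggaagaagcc
The Cdsn window precedes position 35552128, the start of the transcript named in the deposited table, which lies inside the longer RefSeq gene. Both strands were also searched for the TATA box (TATAAA), the AP-1 site (TGANTCA), the Grainyhead-like site (AACCGGTT) and 2 forms of the direct repeat bound by the vitamin D receptor. The Cdsn window held none of the motifs searched. The Dsp window held 4 GC boxes, the nearest ending 40 bases before the start, where 32.7% of 32851 windows of 250 bases held at least 1. The Jup window, 201 bases long, held 2 CCAAT boxes and 1 GC box, where 28.6% and 24.8% of windows of that length held at least 1. Those compared windows were the first 201 of the 250 bases before each start and left out the bases nearest to it. TATAAA occurred in 12.4%, TGANTCA in 6.75% and AACCGGTT in 0.116% of 250-base windows, and the vitamin D receptor repeats in 0.00609% and 0%. A match or its absence describes only these letters in these windows.

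Per transcript length, levels of different genes can be set side by side, for which the deposited FPKM values (fragments scaled by transcript length and library size) were used. With ethanol in SPF skin Pkp1 was highest at 402 ± 31.8 FPKM (SD, n = 3), followed by Cdsn at 315 ± 18.3, Jup at 295 ± 9.84 and Dsp at 290 ± 30.7 FPKM, of which neighbours overlapped from Cdsn down to Dsg1a at 241 ± 32.5 FPKM. Dsc3 stood at 193 ± 20.4, Dsc1 at 55.9 ± 8.51, Dsg1b at 43.1 ± 6.08, Dsg3 at 17.1 ± 1.1 and Dsc2 at 1.35 ± 0.0487 FPKM, each apart from its neighbour. With ethanol in GF skin Cdsn at 363 ± 24.9 and Pkp1 at 353 ± 12.3 FPKM overlapped at the top, and Dsc1 and Dsg1b overlapped at 36.8 ± 4.16 and 36.2 ± 1.88 FPKM. With MC903 Cdsn led at 2112 ± 127 FPKM in SPF skin and 1338 ± 9.75 FPKM in GF skin, followed in both by Pkp1, Jup and Dsp without overlap between neighbours. Dsg1a, at rank 5 with ethanol in both housings, was at rank 8 with MC903 in SPF skin with 37.6 ± 12.1 FPKM and at rank 5 in GF skin with 68.7 ± 7.39 FPKM. It overlapped its neighbour Dsc3 in both, at 59.6 ± 16.2 FPKM in SPF and 63.3 ± 3.58 FPKM in GF skin.

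Cdsn alone went from 17.0 ± 0.575% to 60.8 ± 2.79% of the summed FPKM of the 10 genes in SPF skin and from 20.4 ± 1.2% to 53.0 ± 0.746% in GF skin. The 6 cadherins together went from 29.7 ± 1.67% to 7.38 ± 1.33% in SPF skin and from 26.1 ± 1.72% to 8.53 ± 0.75% in GF skin. Most of the cadherin share with ethanol was Dsg1a, at 13.0% in SPF and 11.8% in GF skin, and Dsc3, at 10.4% and 9.54%. With MC903 these 2 genes held 1.08% and 1.71% in SPF skin and 2.72% and 2.50% in GF skin. These shares are relative, so a share can fall as Cdsn rises although the gene's own level does not fall. Dsc1 went from 3.01 to 2.18% in SPF skin while its mean rose from 55.9 to 76.3 FPKM. Of the 6 cadherins 4 were called higher and 2 lower in SPF skin, and 2 higher and 2 lower in GF skin. The order and the shares describe transcripts and not protein.

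**Figure D5:**
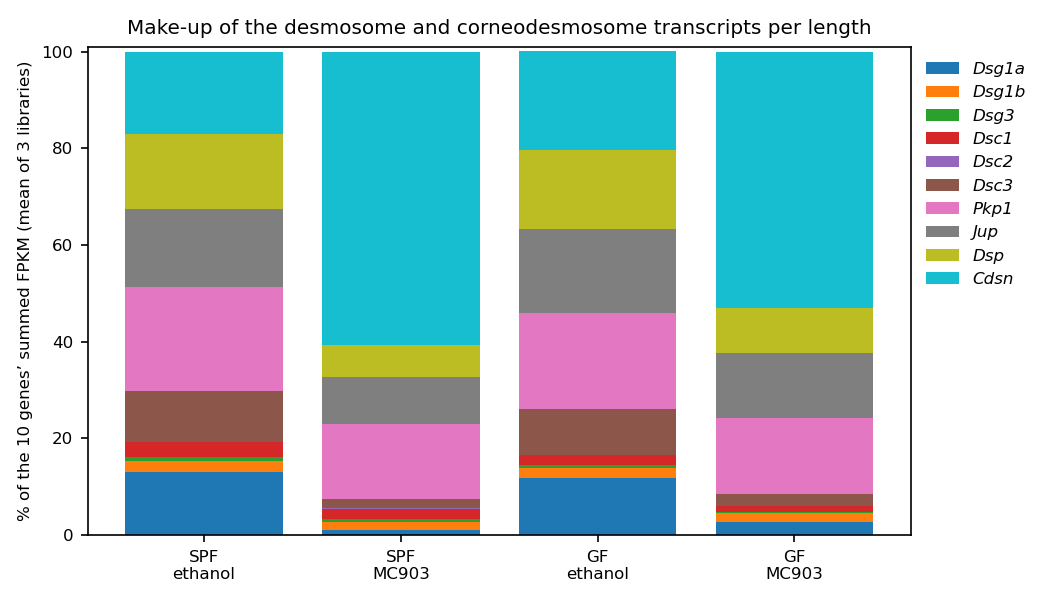
Share of each of the 10 genes in their summed FPKM, in percent, as the mean of 3 libraries in each of the 4 groups. Cdsn grows from 17.0 to 60.8% in SPF skin and from 20.4 to 53.0% in GF skin, and the summed share of the 6 cadherins at the bottom of each bar shrinks. A smaller share does not mean a lower level of a gene.

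With ethanol, 2 of the 10 genes differed between housings, and both were lower in GF skin, where 22% of all genes were called, 11.6% higher and 10.3% lower. The 3616 genes called in this comparison became 1475 without GF ethanol replicate 4, 2354 and 2333 without SPF ethanol replicates 2 and 3, and 2129 with the length trend removed, that is, after a trend of the counts with gene length was taken out of each library. Dsg3 was 36.4 ± 7.05 CPM in GF and 58.9 ± 3.58 CPM in SPF skin, a log2 difference of -0.70 (SE 0.16, adjusted p = 0.012). Dsc1 was 158 ± 15 CPM in GF and 232 ± 34.9 CPM in SPF skin, a difference of -0.56 (SE 0.16, adjusted p = 0.025). The Dsg3 call was lost without GF ethanol replicate 4 (adjusted p = 0.067), and the Dsc1 call without SPF ethanol replicate 3 (0.1), GF ethanol replicate 1 (0.051) or GF ethanol replicate 4 (0.11). Cdsn was 839 ± 73.8 CPM in GF and 703 ± 49.5 CPM in SPF skin, without overlap, and its difference of 0.26 (SE 0.09) had an adjusted p of 0.055 here and of 0.011 in DESeq2. The other 7 genes differed by -0.20 to 0.12 and none passed the test. The housings did not overlap with ethanol for Dsg1b, Dsg3, Dsc1 and Cdsn, 4 of the 10, against 43.9% of all genes.

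With MC903, 7 of the 10 genes differed between housings, against 41.7% of all genes, 20.8% higher and 20.9% lower. Lower in GF skin were Dsc2 by 2.18 (SE 0.28, adjusted p = 8.4e-05), Dsg3 by 1.48 (SE 0.17, adjusted p = 3.3e-05), Dsc1 by 1.32 (SE 0.16, adjusted p = 5.0e-05) and Cdsn by 0.66 (SE 0.09, adjusted p = 1.0e-04) on the log2 scale. Pkp1 and Dsg1b were lower too, with differences of -0.44 (SE 0.08, adjusted p = 0.0012) and -0.40 (SE 0.11, adjusted p = 0.013). The Dsg1b call was lost without GF MC903 replicate 1 (adjusted p = 0.05) or replicate 5 (adjusted p = 0.058). Dsg1a was higher in GF skin, by 0.87 (SE 0.18, adjusted p = 0.0021), and the sum of the Dsg1 copies differed by 0.22 (SE 0.13, adjusted p = 0.21). Dsc3, Jup and Dsp differed by 0.09 (95% interval -0.20 to 0.38), -0.01 (-0.16 to 0.14) and 0.06 (-0.12 to 0.25), and none passed the test. The 7 genes called were those whose housings did not overlap, against 50.6% of all genes. The housing comparison with MC903 uses the same MC903 libraries as the 2 responses.

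The housings' responses were compared directly by their difference, GF minus SPF, where 7.75% of all genes were called positive and 9.26% negative. Dsg1a was called positive, because it fell less in GF skin, and Dsg3, Dsc1, Dsc2 and Cdsn negative. Dsc2 and Cdsn rose less in GF skin. Dsc1 and Dsg3, which did not pass the test in GF skin, stood at 0.25 and -0.17 there against 1.02 and 0.61 in SPF skin. The genes not called were Dsg1b, Dsc3, Pkp1, Jup and Dsp, the last with a difference of 0.01 (SE 0.13, 95% interval -0.25 to 0.27, adjusted p = 0.97). Markers of keratinocyte layers also moved with housing and MC903. The summed level of 6 basal markers overlapped, at 28719 to 32725 CPM in SPF MC903 and 30658 to 30948 CPM in GF MC903 libraries. Of these 6 markers 3 were called higher and 2 lower in GF MC903 skin, with a median difference of 0.11. The summed level of 4 suprabasal markers was 21560 to 27823 CPM in SPF MC903 and 31511 to 33505 CPM in GF MC903 libraries, where 2 of the 4 were called higher and 1 lower in GF skin. That of 4 granular markers overlapped, at 6563 to 8301 CPM and 7879 to 9716 CPM, and was mostly Lor, at 6190 ± 1070 CPM and 8122 ± 959 CPM (SD, n = 3). Of these 4 markers 0 were called higher and 2 lower in GF MC903 skin, Tgm3 at 393 ± 49.2 against 1050 ± 211 CPM and Ivl at 83.4 ± 2.56 against 117 ± 6.28 CPM, with a median difference of -0.36. The part of these markers' cells in the differences was not tested.

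The wider desmosome list held 8 more genes, of which 7 were tested. In SPF skin 4 rose, with a median of 0.35 over the 7 against -0.10 over all genes, and 3 fell. Of all genes 73.8% were called in SPF skin, 35% higher and 38.8% lower. Pkp3, the plakophilin found through all epidermal layers, rose by 1.40 (SE 0.08, adjusted p = 1.4e-08) in SPF and by 1.04 (SE 0.08, adjusted p = 2.9e-07) in GF skin. Evpl, envoplakin, rose by 0.44 (adjusted p = 2.1e-04) and 0.40 (adjusted p = 5.0e-04), while its partner in the cornified envelope Ppl, periplakin, changed by -1.40 (adjusted p = 2.3e-07) in SPF and -0.98 (adjusted p = 7.2e-06) in GF skin. In GF skin 3 rose and 3 fell, with a median of 0.25, where 68.5% of all genes were called. On library totals 2 rose in SPF and 1 in GF skin. The 2 genes that fell beside Ppl in each housing were Dsg1c and Dsg2.

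The proteases that cut corneodesmosomes and their inhibitors rose together with Cdsn. All 14 genes of this list that were tested rose in both housings, of 15 listed, with medians of 2.64 in SPF and 1.94 in GF skin against -0.10 and -0.07 over all genes. Of all genes 35% rose in SPF skin and 33.4% in GF skin. Like the other lists, this list was chosen with earlier results of these data known, so its count is not independent of them. On library totals 13 rose in SPF skin, and 12 rose and 1 fell in GF skin. Klk7, a kallikrein that cuts corneodesmosin, rose by 3.10 (SE 0.08, adjusted p = 5.1e-11) in SPF and 2.41 (SE 0.08, adjusted p = 5.1e-10) in GF skin. Klk6 rose by 4.80 (adjusted p = 5.1e-11) and 4.82 (adjusted p = 1.5e-10). The responses differed for 9 of the 14, all smaller in GF skin, while 9.26% of all genes were called for a negative difference. Among these were Spink5, which encodes the kallikrein inhibitor LEKTI, at 1.88 in SPF and 0.73 in GF skin (difference -1.15, SE 0.14, adjusted p = 3.3e-04), and Ctsl, cathepsin L, at 2.64 and 1.67 (difference -0.97, SE 0.11, adjusted p = 2.0e-04). With MC903, 10 of the 14 were lower in GF than in SPF skin, against 20.9% of all genes, and 1, Klk5, was higher, by 0.30 (adjusted p = 0.013). The Klk5 call was lost without SPF MC903 replicate 3 and with the length trend removed.

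Genes that act on desmosomes or on their expression moved in both directions. Of 8 genes of desmosome remodelling 4 rose and 2 fell in SPF skin, and 2 rose and 2 fell in GF skin, with medians of 0.19 and -0.09. On library totals 2 rose and 4 fell in SPF skin, and 0 rose and 8 fell in GF skin. Of all genes 73.8% were called in SPF and 68.5% in GF skin, against 6 and 4 of these 8. The count of 2 that rose in GF skin was 0 without GF ethanol replicate 1, 1 without GF ethanol replicate 4 or GF MC903 replicates 1, 4 or 5 and with the replicate block, and 5 with the length trend removed. Src, a kinase, rose by 1.03 (adjusted p = 1.2e-07) and 0.21 (adjusted p = 0.027), and Atp2a2, the calcium pump mutated in human Darier disease, by 0.78 (adjusted p = 2.4e-07) and 0.19 (adjusted p = 0.017). Egfr fell by 0.67 (adjusted p = 2.0e-05) and 0.36 (adjusted p = 0.0029). With MC903, 7 of the 8 were lower in GF than in SPF skin, against 20.9% of all genes, with a median of -0.50 against 0.02 over all genes. Of 7 transcription factors of epidermal differentiation 3 rose and 2 fell in each housing, with medians of -0.01 and -0.13, and on library totals 4 fell in SPF and 6 in GF skin. That 5 of 7 were called in each housing is near the 73.8% and 68.5% of all genes. The count of 2 that fell in GF skin was 1 without GF ethanol replicates 4 or 5, GF MC903 replicates 4 or 5, or with the length trend removed. Ovol1 rose by 1.41 (adjusted p = 7.4e-08) and 1.18 (adjusted p = 5.7e-07), Zfp750 by 0.94 (adjusted p = 6.4e-08) and 0.34 (adjusted p = 6.1e-04), and Grhl3 fell by 0.87 (adjusted p = 7.9e-05) and 0.74 (adjusted p = 3.3e-04).

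Of the other junctions between keratinocytes, 6 of 9 adherens junction genes rose and 1 fell in SPF skin, and 5 rose and 2 fell in GF skin, with medians of 0.61 and 0.23. That 7 of 9 were called in each housing is near the 73.8% and 68.5% of all genes. On library totals 3 rose and 3 fell in SPF skin, and 2 rose and 5 fell in GF skin. Cdh3, P-cadherin, rose by 1.38 (adjusted p = 5.7e-08) and 1.39 (adjusted p = 1.1e-07), and Nectin1 by 1.40 (adjusted p = 1.9e-09) and 0.90 (adjusted p = 1.4e-07). Ctnnb1, beta-catenin, the armadillo relative of Jup, stood at -0.08 (adjusted p = 0.21) in SPF and -0.38 (adjusted p = 5.6e-05) in GF skin. Of 6 connexin genes of gap junctions 4 rose and 2 fell in SPF skin, and 5 rose in GF skin, with medians of 1.09 and 1.07. Of all genes 35% rose and 38.8% fell in SPF skin, and 33.4% rose in GF skin. In GF skin 1 connexin gene was called lower on library totals and with the length trend removed. Gjb2 rose by 5.01 (adjusted p = 5.1e-11) and 4.26 (adjusted p = 2.8e-10) and Gjb6 by 5.61 (adjusted p = 5.1e-11) and 5.31 (adjusted p = 2.3e-10), where the changes of Cdsn were 3.32 and 2.40.

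Among the 10 genes, Dsg1a and Dsc3 followed each other over the 12 libraries, with a Pearson r of 0.96 of log2 CPM, and so did Dsg1b and Pkp1 with 0.98 and Dsg3 and Dsc1 with 0.92. Dsg1a and Cdsn ran opposite, with -0.95. Dsg3 and Dsc3, both of the lower layers, had -0.13. Outside the 10 genes, the tested genes most like Cdsn in pattern were Rars (0.999) and Ube2n (0.998), those most like Dsg1a were Npbwr1 (0.996) and Lrp4 (0.994), and those most like Jup were Krt16 and Epb41l4a (both 0.993). These correlations describe 12 libraries in 4 groups that share treatment and scaling, and with most genes moved by MC903 high values are common.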

How the data were processed

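Ear skin RNA was sequenced in 12 libraries, 3 in each of 4 groups set by the housing and treatment labels. Per the submitters' processing notes the build was mm10 and the tools were StringTie 1.3.4d, HISAT2 2.1.0, Trimmomatic and bcl2fastq 2.20.0. The sources used here do not give their settings, the annotation, or whether strand was used. Per the file headers the authors' table gives each gene an estimated count and an FPKM value in each library. The deposited estimated counts are whole numbers and were used as deposited.

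Counts were tested with edgeR 4.0.16 in R 4.3.3: filterByExpr by group (minimum count 10, minimum total 15), TMM scaling, a quasi-likelihood fit with 1 coefficient per group, and Benjamini-Hochberg adjustment over 16466 of 24532 genes, at 0.05. The common dispersion was 0.022. The SE is the log2 change divided by the square root of F. The script was tested on simulated data in which few genes changed, in the SPF MC903 group only. That test does not bear on the scaling where most genes change. Replicates differed beyond sampling noise in all 12 pairs within groups (chi-square per degree of freedom 17.7 to 45.7). FPKM values served for levels between genes. Ratios of counts within a library were compared by exact permutation tests (two-sided, 40 tests).

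Every one of the 10 genes is named in each comparison, the 2 genes with the lowest adjusted p in each direction may be named of each wider list, and the 2 most alike by Pearson r of log2 CPM for a gene. The genes and lists were chosen with earlier results of these data known. Filaggrin was looked for as a keratinocyte marker and is not analysed here. Genomic positions and upstream windows are from RefSeq tables of GRCm38.p6, the same build as mm10. Alternatives were DESeq2 1.42.0, limma 3.58.1 (voom, and trend on log2 of FPKM with 0.1 added), other scalings and filters, removal of the trend with gene length, a replicate block, each library left out, a fit of only the 6 libraries compared, and the Dsg1 copies summed.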

Additional observations from a re-analysis of the deposited data

Results flagged for a closer look

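The response to MC903 differed between the housings by the test of the difference itself (GF minus SPF, edgeR, adjusted p under 0.05) for 5 of the 10 genes. For Dsg1a the difference was 1.02 on the log2 scale, with a fall of 2.11 in SPF and 1.09 in GF skin. For Dsc2 it was -1.98, for Cdsn -0.92, for Dsg3 -0.78 and for Dsc1 -0.77. Dsg1a is the gene whose reads may be shared with Dsg1b and Dsg1c, and their sum gave 0.38 with an adjusted p of 0.19. The level of Dsc2 in GF MC903 skin ranged from 4.44 to 12.8 CPM over 3 libraries.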

How the results depend on the processing

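For the 10 genes in 5 comparisons, 50 values in all, 1120 alternative values were computed: 1025 kept direction and call, 41 lost the call, 28 gained it and 26 changed sign. The Cdsn, Dsg1a and Dsc3 responses kept direction and call in every alternative, in both housings. The causes of the changes were not tested, except where the construction gives them. Both library totals and limma-trend on FPKM, which also scales by totals, move all responses downward. Under each, 3 genes rose and 4 fell in GF skin, and 2 differences of responses were negative. The Dsp responses were then -0.37 in SPF and -0.30 in GF skin, the GF change of Dsc1 was -0.26 on totals and -0.27 on FPKM, and the Dsp difference between ethanol groups was 0 on totals. Summing the Dsg1 copies gave values for Dsg1b of -0.95, -0.57, 0.38 and 0.22 (SPF response, GF response, their difference, MC903 groups), and left 0 positive differences of responses and 0 genes higher in GF MC903 skin. Between ethanol groups 1 gene was called higher in GF skin with no filter, in DESeq2 and in voom (Cdsn each time), and 1 with the length trend removed (Dsp), which also left 1 lower. With the length trend removed signs changed for Dsg3 in GF skin (0.12), the Dsp difference of responses (-0.16), Dsg1a (0.02) and Dsc3 (0.03) between ethanol groups and Jup between MC903 groups (0.07). The Dsp difference was -0.02 under RLE size factors and in DESeq2.

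Leaving out 1 library gave 7 to 8 genes called higher and 2 lower in SPF skin, 4 to 6 and 2 in GF skin, 1 positive and 2 to 5 negative differences, 0 to 1 higher and 0 to 2 lower between ethanol groups, and 1 higher and 5 to 6 lower between MC903 groups. The negative differences were 2 without SPF ethanol replicates 1 or 2, SPF MC903 replicates 1 or 3, GF ethanol replicates 1 or 5, or GF MC903 replicates 1 or 5. Lower calls between ethanol groups were 0 without GF ethanol replicate 4. Signs changed for the Dsp difference of responses (-0.07 to 0.09), Dsp between ethanol groups (-0.02 to 0.13), and Dsc3 (-0.08 to 0.30) and Jup (-0.03 to 0.02) between MC903 groups. Between ethanol groups the log2 ratio of Dsc2 to Dsc3 ranged from -0.17 to 0.04 (without GF ethanol replicate 5), and that of Dsp to Jup from -0.11 to 0.02 (without SPF ethanol replicate 3).

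The same replicate numbers occur under both treatments, and the labels do not say whether they mark the same mouse. Deviations from group means of only 3 libraries cannot decide this. Those deviations correlated between same-numbered libraries by 0.01, 0.07 and 0.14 in SPF and 0.02, -0.02 and 0 in GF skin. In 2 of 3 SPF and 1 of 3 GF numbers a library correlated best with its own number. With a replicate block the calls for the 10 genes were 7 higher and 2 lower in SPF skin, 5 and 2 in GF skin, and 1 positive and 4 negative differences, and over all genes 11950, 11072 and 2303. With 3 libraries a group, small changes such as those of Dsp and Dsc1 in GF skin fall near the limit of the test, and Dsc2, at 155 to 460 counts in the GF libraries, has the largest SE of the 10 genes in each response.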
